A study of Homo sapiens with 4 samples.

Results

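AP-1 is not 1 protein but a family of paired transcription factors, and the genes described here are FOS, FOSB, FOSL1, FOSL2, JUN, JUNB, JUND, ATF3 and MAFF. They were taken by symbol, and every probe carrying one of these 9 symbols in the array annotation was examined. The annotation names 11 probes for 8 of the genes and none for JUND, out of 47217 probes on the array. Of the 9 genes, 7 had a probe above background on at least 2 arrays and were tested, among 11030 genes tested in all.

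The arrays held RNA of H9, a long-established human embryonic stem cell line, at 24 h after gamma irradiation (2 arrays) and at 0 h, before it (2 arrays). Cells of both groups grew in the same serum-replacement medium with basic FGF. The labels state no radiation dose, although the series title calls it low, and no unirradiated cells at 24 h were analysed here, so irradiation and a day in culture cannot be told apart. All 4 arrays came from 1 slide with the groups at different positions, which leaves position inseparable from group. Nothing in the labels says that replicates were grown apart, so the p-values rest on a spread that may be purely technical.

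Every AP-1 protein has a basic region that contacts DNA and a leucine zipper that joins it to a partner. Fos proteins cannot pair with each other and need a Jun partner, whereas Jun proteins also pair among themselves. ATF3 joins Jun proteins or itself, and the small Maf protein MAFF, which has no activation domain of its own, pairs with Fos, NRF2 and BACH proteins. The genes are known as immediate early genes: growth factors and stress, acting through the ERK, JNK and p38 kinases, switch FOS on within minutes and only briefly, while FOSL1 follows later, lasts longer and is itself a target of AP-1. JUN and ATF3 are well known to be induced in cells hit by ultraviolet light or ionising radiation.

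The promoters of JUN, FOS and ATF3 are shown because these genes respond to their own family's proteins or to the related ATF and CREB factors. The sequences are from RefSeq (GRCh38.p14) and run 5′ to 3′ along the gene's strand over the 250 bases that end just before the annotated start. JUN is at chr1:58784048-58784297 on the minus strand, FOS at chr14:75278578-75278827 on the plus strand, and the upstream start of ATF3 at chr1:212565157-212565406 on the plus strand. Capitals mark TGACNTCA (N is any base), an 8-letter form that ATF and Jun pairs bind, and TGACG, both searched on either strand. Sites with other letters were not searched and stay in lower case. TGACG, called the core here, is part of TGACGTCA but not of TGACATCA.
JUN: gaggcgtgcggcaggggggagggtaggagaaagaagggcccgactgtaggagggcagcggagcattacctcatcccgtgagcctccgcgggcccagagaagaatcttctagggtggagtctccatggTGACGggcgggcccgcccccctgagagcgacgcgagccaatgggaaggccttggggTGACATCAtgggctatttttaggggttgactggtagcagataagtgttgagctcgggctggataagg
FOS: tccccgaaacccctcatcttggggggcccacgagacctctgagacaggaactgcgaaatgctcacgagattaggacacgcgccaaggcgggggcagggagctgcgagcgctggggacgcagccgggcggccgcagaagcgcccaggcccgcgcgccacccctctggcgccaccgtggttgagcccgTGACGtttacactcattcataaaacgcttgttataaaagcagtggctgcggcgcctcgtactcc
ATF3: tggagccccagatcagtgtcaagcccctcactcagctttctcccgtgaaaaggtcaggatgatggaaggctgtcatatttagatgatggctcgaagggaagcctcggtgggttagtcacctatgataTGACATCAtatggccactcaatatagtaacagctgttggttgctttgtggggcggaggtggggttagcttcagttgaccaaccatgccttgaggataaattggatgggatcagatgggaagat

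JUN and the upstream start of ATF3 carried the same 8 letters, TGACATCA, whose first base lay 67 bases before the start in JUN and 123 bases before it in ATF3. FOS had no 8-letter match and a core match 64 bases before its start. RefSeq windows were matched for 8 of the 9 genes, 10 windows in all, because ATF3 and MAFF each have 2 starts. The gene without a window was FOSL1, so the counts below do not cover it. Of these 10 windows, 4 held TGACNTCA, in JUN, JUND, ATF3 and MAFF, against 6.87% of 35114 such windows in the genome. The core was in 7 of the 10, against 21.2% of all windows, and some core matches lie inside an 8-letter match. TGANTCA, which takes in the classical AP-1 site but allows any base at N, was in 0 of the 10 windows and in 6.57% of all. The share of all windows with the classical site alone, TGACTCA or TGAGTCA, was not counted. These matches describe letters only.

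**Figure D1:**
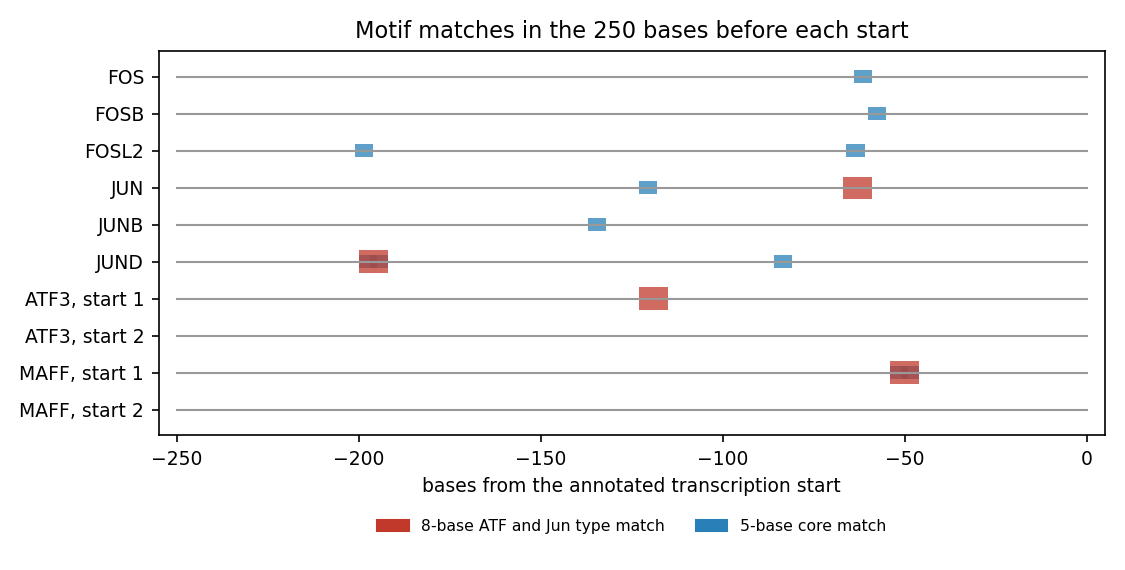
Positions of motif matches in the 250 bases before each annotated start of an AP-1 gene, in bases from the start (0, right edge). FOSL1 had no window and is not drawn. Red boxes are TGACNTCA matches and blue boxes TGACG matches on either strand; JUN, JUND, ATF3 (start 1) and MAFF (start 1) each hold 1 red box, and in JUND and MAFF blue boxes overlap it.

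The question put to the arrays was which AP-1 transcripts of pluripotent cells stood higher or lower a day after irradiation. FOSL1 and JUN, a Fos and a Jun subunit, rose: FOSL1 3.11-fold and JUN 1.75-fold. FOS and ATF3 were also higher on both 24 h arrays, 2.13-fold and 1.57-fold, and missed the threshold narrowly. FOSB, FOSL2 and MAFF did not pass, JUNB was not above background on any array, and JUND was not analysed here. In all, 2 of 7 tested members passed, both higher, in a fit where 2.28% of all genes passed, 1.35% higher and 0.925% lower.

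Values below are normalised log2 signals, after background correction and quantile normalisation of the 4 arrays, and a difference subtracts the 0 h mean from the 24 h mean, with limma's standard error (SE). Two-sided p-values were adjusted over all 11030 genes (Benjamini-Hochberg), and those under 0.05 passed. A probe's brightness depends on its sequence, so levels are compared between arrays and never between genes. The comparison uses 1 probe or, for 2 marker lists, a summed signal in which the brightest probes weigh most.

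FOSL1, also known as FRA-1, is a Fos protein without the strong activation domain of FOS. It is a gene of chromosome 11 with 1 probe, detected on all 4 arrays. Its signal was 8.27 and 8.05 on the 24 h arrays, against 6.35 and 6.70 on the 0 h arrays. The lower 24 h array thus lay well above the higher 0 h array. The difference was 1.63 ± 0.17 SE (limma adjusted p = 0.0447, 95% interval 1.19 to 2.08), the 9th largest upward difference of all 11030 genes. The bead intensities as deposited kept this order, at 375 and 283 at 24 h and 213 and 271 at 0 h, although the 24 h arrays were dimmer as a whole. The size of the difference depends on the background step, and without it was 0.92.

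FOS encodes the founding partner of JUN and is a gene of chromosome 14 with 1 probe, detected on all 4 arrays. Its signal was 7.08 and 7.33 at 24 h, against 6.26 and 5.97 at 0 h. The groups were separate, with a gap wider than the spread within either of them. The difference was 1.09 ± 0.16 SE and just missed the threshold (limma adjusted p = 0.0516, 95% interval 0.66 to 1.51). In the deposited intensities the groups were close, at 232 and 219 at 24 h and 206 and 215 at 0 h. Without background correction the difference was 0.49, and there it passed (limma adjusted p = 0.0088; the alternatives together gave 0.0066 to 0.238).

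FOSB, on chromosome 19, is a Fos protein best known for the stable short form that builds up in stimulated neurons. Its probe gave 6.32 and 6.73 at 24 h, against 5.19 and 6.09 at 0 h. Both 24 h arrays detected it, but only replicate 2 of the 0 h arrays did, and the 0 h arrays stood far apart. The difference of 0.89 ± 0.34 SE missed the threshold (limma adjusted p = 0.171, 95% interval -0.02 to 1.79).

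FOSL2, or FRA-2, on chromosome 2, is the other Fos protein without a strong activation domain. Its signal was 6.46 and 6.27 at 24 h, against 6.08 and 6.69 at 0 h. The 24 h arrays lay between the 0 h arrays. The difference was -0.02 ± 0.23 SE (limma adjusted p = 0.97), and its 95% interval of -0.64 to 0.60 spans 0. The sign turned under 75th percentile scaling (0.11), and it turned when 24 h replicate 2 (0.08) or 0 h replicate 2 (0.29) was left out.

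JUN, on chromosome 1, encodes the subunit that JNK phosphorylates, and it had 1 probe, detected on all 4 arrays. Its signal was 8.43 and 8.51 at 24 h, against 7.68 and 7.65 at 0 h. Replicates lay close together in both groups, with SDs of 0.051 at 24 h and 0.026 at 0 h (n = 2 each), and the groups were far apart by comparison. The difference was 0.81 ± 0.10 SE (limma adjusted p = 0.0477, 95% interval 0.53 to 1.08).

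The rise of JUN is a rise relative to the other genes on the same arrays. Its deposited intensities overlapped, at 405 and 343 at 24 h and 352 and 404 at 0 h, while the whole arrays were dimmer at 24 h. With background correction and no scaling between arrays, JUN differed by 0.094 (limma adjusted p = 0.792) and the median gene by -0.65, so that JUN stood 0.74 above the median gene. On those unscaled values FOSL1 differed by 0.99 and stood 1.64 above the median gene, and FOS differed by 0.55 and stood 1.197 above it. The part of labelling or scanning in the dimmer 24 h arrays was not tested.

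JUNB and JUND, the other Jun proteins, are both genes of chromosome 19 and are known to act more weakly than JUN or against it. The 1 probe of JUNB was not well above background on any array, with detection p of 0.59 and 0.396 at 24 h and 0.756 and 0.301 at 0 h. Its signal of 4.74 and 4.86 at 24 h, against 4.65 and 4.97 at 0 h, lay under the lowest detected signal of each array, and no fold is given. A probe below background sets no level for its transcript, which the probe may also miss.

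ATF3, on chromosome 1, encodes a stress-induced factor that represses transcription as a pair with itself and can activate it with JUN. Of its 3 probes 1 was detected on all 4 arrays, with 8.60 and 8.65 at 24 h, against 7.95 and 8.003 at 0 h. The replicates were tight and the groups did not overlap. The difference of 0.65 ± 0.10 SE missed the threshold (limma adjusted p = 0.0525, 95% interval 0.38 to 0.93). The deposited intensities overlapped, at 441 and 367 at 24 h and 400 and 482 at 0 h. Without scaling between arrays the difference was -0.075, which is 0.58 above the median gene.

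The other ATF3 probes lay at background on most arrays. One, annotated to another transcript, was detected only on 0 h replicate 1, with signals of 4.66 and 4.86 at 24 h and 5.69 and 4.81 at 0 h. The other is annotated to the same transcript as the bright probe, yet no array detected it. The ATF3 difference thus rests on the bright probe alone, and why these probes disagree was not tested.

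MAFF, on chromosome 22, had 2 probes near background. The brighter one gave 5.91 and 5.09 at 24 h, against 5.50 and 5.15 at 0 h. Only replicate 1 of each group was detected, and the groups overlapped. The difference of 0.17 ± 0.31 SE did not pass (limma adjusted p = 0.75), its 95% interval ran from -0.65 to 1.00, and without 24 h replicate 1 it was -0.24. The second MAFF probe was detected on no array, at 5.08 and 5.46 at 24 h and 4.51 and 4.98 at 0 h.

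**Figure D2:**
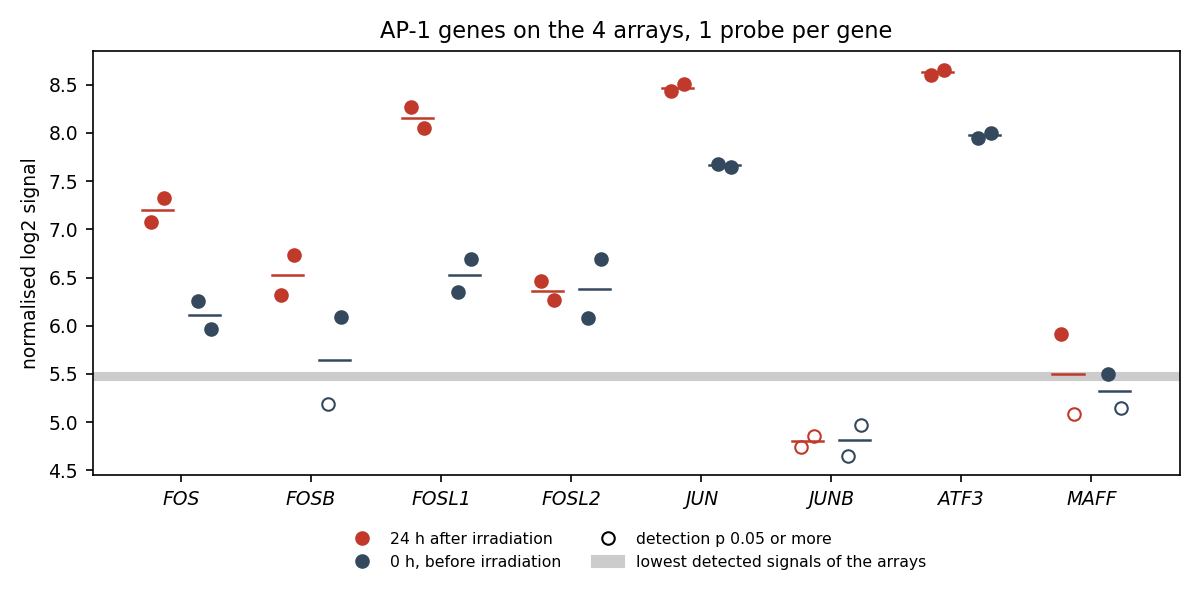
Normalised log2 signal of the probe that stands for each AP-1 gene, on the 24 h arrays (red, left) and the 0 h arrays (dark, right), with a short line at the mean of the 2 arrays. Open circles are below background (detection p of 0.05 or more) and the grey band spans the lowest detected signals of the 4 arrays; the groups are apart for FOS, FOSB, FOSL1, JUN and ATF3, and overlap for FOSL2, JUNB and MAFF. Heights of different genes are not comparable.

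**Figure D3:**
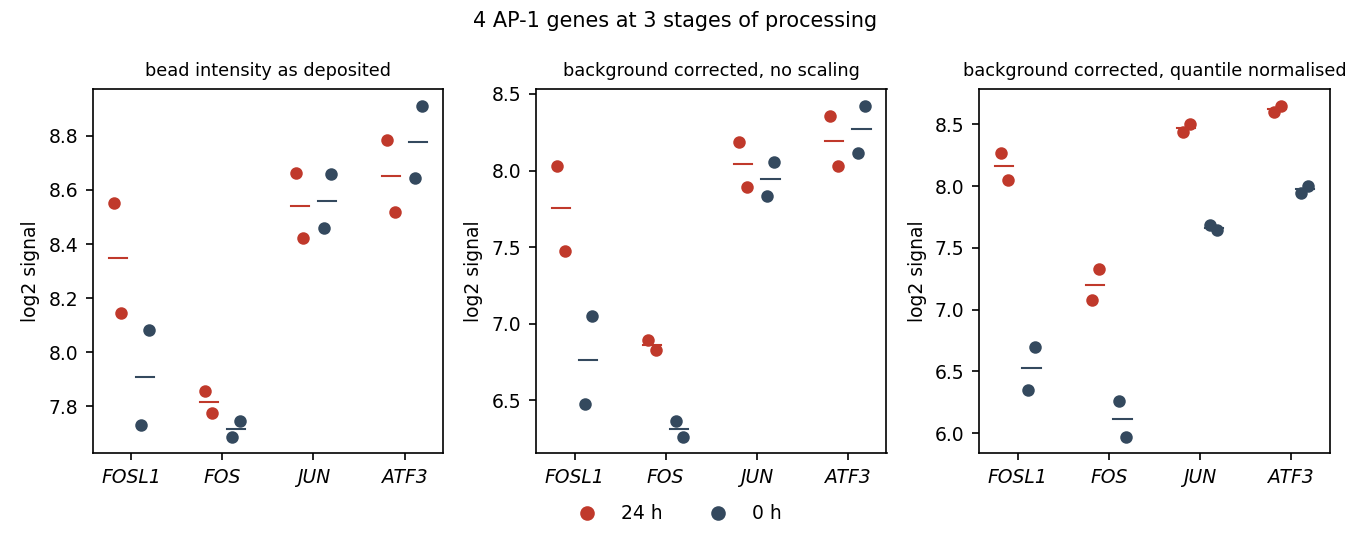
The log2 signal of FOSL1, FOS, JUN and ATF3 on the 24 h arrays (red) and 0 h arrays (dark) as deposited (left), after background correction (middle) and after quantile normalisation as well (right), with lines at the means and a separate scale in each panel. FOSL1 and FOS are higher at 24 h in all 3 panels, whereas JUN and ATF3 overlap until the arrays are brought to a common scale.

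For 5 of the 7 tested genes the groups did not overlap, FOS, FOSB, FOSL1, JUN and ATF3, each time higher at 24 h. Separation is common in these data: 61.6% of all genes tested had groups that did not overlap, 30.3% higher and 31.3% lower. At an unadjusted p under 0.05 stood 4 of the 7, FOS, FOSL1, JUN and ATF3, against 30.3% of all genes. The difference was above 0 for 6 of the 7, against 49.4% of all genes, and the median over the 7 was 0.81, against -0.01 over all genes. The genes that could be tested were those bright enough to detect, and these counts describe them only.

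The 2 calls lie close to the threshold, since 0.0447 was the smallest adjusted p that any gene reached. FOSL1 and JUN were no longer called when any 1 of the 4 arrays was left out (limma adjusted p of 0.0929 to 0.238 for FOSL1 and for JUN), or when all 20361 detected probes were tested one by one (adjusted p = 0.0801 for each, with 0% of probes called and 5235 at an unadjusted p under 0.05). Stricter filters on dim probes, other or no background correction, and a prior with trend and robust options called FOS and ATF3 as well, 4 members in all. Those settings called more genes of every kind, 12.7% to 22.9% of all genes tested, against 2.28% in the fit reported.

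**Figure D4:**
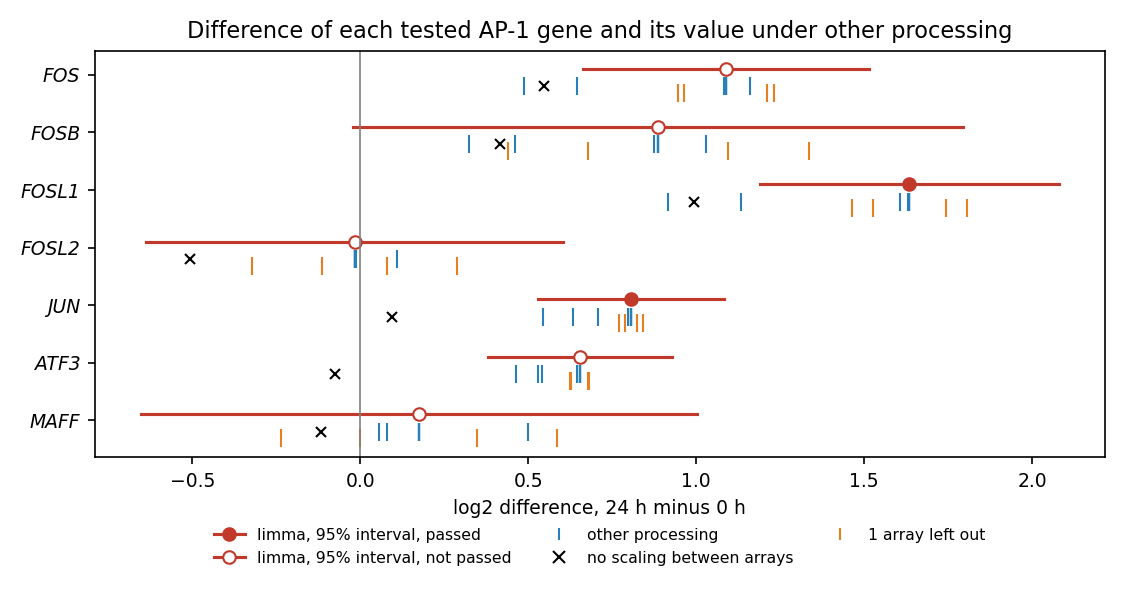
The log2 difference, 24 h minus 0 h, of each tested AP-1 gene (red circle, filled where it passed) with limma's 95% interval (red line). Ticks give the same difference under other processing (blue), with 1 array left out (orange) and without scaling between arrays (black cross); FOSL1 runs from 0.92 to 1.81 and JUN from 0.094 to 0.84.

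FOSL1 had the largest difference of the members. The 3 tested genes whose 4 array values, each less its own mean, lay nearest to those of FOSL1 were ST3GAL2, NPTX1 and ACTA2. ST3GAL2, a sialyltransferase, lay at a Euclidean distance of 0.15 log2 units, NPTX1, a secreted neuronal pentraxin, at 0.24, and ACTA2, smooth muscle actin, at 0.25. Their differences were 1.76 for ST3GAL2, 1.604 for NPTX1 and 1.504 for ACTA2, close to that of FOSL1 by the way they were chosen.

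Around AP-1 stand the other basic zipper factors with which its members pair or compete. Of 17 tested, 0 rose, 1 fell and 16 did not pass, with a median difference of -0.06. ATF5, a factor of the amino acid and mitochondrial stress response, fell by 1.24 ± 0.10 (limma adjusted p = 0.0447), to 8.70 at 24 h, against 9.94 at 0 h. CEBPD, an inflammatory CCAAT-binding factor, stood at 0.60 ± 0.13 and CREB5 at 0.55 ± 0.27. BATF and BATF2 were detected on no array.

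The kinases that switch AP-1 on did not pass. In the ERK cascade 0 of 8 tested genes passed (median 0.04), with the kinase RPS6KA1 at 0.61 ± 0.11 (limma adjusted p = 0.0574), RPS6KA2 at -0.43 ± 0.12 and HRAS at -0.18 ± 0.11. The RPS6KA1 value is that of its brightest probe, and the mean of its probes gave 0.067 (limma adjusted p = 0.908). In the JNK and p38 cascades 0 of 18 passed (median 0.11). MAP2K4, the kinase that activates JNK, stood at -0.65 ± 0.11 (limma adjusted p = 0.0567). MAPK10, the neuronal JNK, stood at 0.58 ± 0.22. MAPK11, a p38 kinase, was not well above background at 0 h. It was at least 1.34-fold higher at 24 h, a difference that missed the threshold (limma adjusted p = 0.111). The detection filter kept MAPK11 only through its 24 h arrays, which favours that direction. A bound sets the bright group's mean over the lowest detected signal of the dim arrays, or the probe's own where that is higher, and carries no sampling error.

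The transcript levels of kinases say nothing of their activity. Serum response factor's partners, of which the ELK proteins carry ERK signals to the FOS promoter, gave 0 of 4 passing (median -0.16), with MRTFB at -0.76 ± 0.32, ELK4 at -0.30 ± 0.28, detected at 24 h on 1 array only, and MRTFA at 0.02 ± 0.17. The phosphatases that switch the kinases off gave 0 of 6 (median 0.17), with the ERK phosphatase DUSP5 at 0.73 ± 0.14 (limma adjusted p = 0.0624), DUSP14 at 0.48 ± 0.10 and DUSP16 at 0.18 ± 0.28. Genes of AP-1 turnover and coactivation gave 0 of 12 (median -0.15). Among these the acetyltransferases EP300 and CREBBP stood at -1.28 ± 0.36 and -0.64 ± 0.14, and the kinase GSK3B, which marks JUN for degradation, at 0.61 ± 0.11. EP300 was at -0.77 without 24 h replicate 2, and at -0.57 without background correction, where it passed (limma adjusted p = 0.0123). MRTFB was at -0.41 without 24 h replicate 2.

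Other immediate early genes rose in part. Of 27 tested, 3 rose, 0 fell and 24 did not pass, with 22 above 0 and a median of 0.31. CCN1 and CCN2, matrix-bound growth regulators that also answer to YAP and serum response factor, rose by 1.13 ± 0.12 and 0.80 ± 0.10. IER3, a stress-induced survival gene, rose by 0.96 ± 0.12. Their adjusted p was 0.0447, 0.047 and 0.0456 in limma. GADD45A, a p53 target, stood at 1.00 ± 0.19 (limma adjusted p = 0.0614). EGR1, the zinc finger factor usually induced beside FOS and named here after its values were seen, stood at 0.66 ± 0.15 (limma adjusted p = 0.0738).

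Known AP-1 target genes went both ways. Of 18 tested, 3 rose, 1 fell and 14 did not pass, with a median of 0.30. ITGA5, the fibronectin receptor's alpha chain, rose by 1.33 ± 0.13, to 8.03 at 24 h, against 6.70 at 0 h. PLAU, urokinase, rose by 1.04 ± 0.12 and VIM, the intermediate filament vimentin, by 0.86 ± 0.12. HMOX1, heme oxygenase, which answers above all to NRF2, fell by 1.00 ± 0.11. The collagenase MMP1 and stromelysin MMP3, textbook targets of AP-1, were detected on no array.

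VIM is also a marker of fibroblasts and mesenchyme, a group of which 5 of 10 tested genes rose, ACTA2 by 1.504 ± 0.11, S100A4 by 1.17 ± 0.10, COL1A1 by 1.05 ± 0.14, TAGLN by 0.88 ± 0.10 and VIM. The other 5, COL1A2, COL5A1, COL6A3, PDGFRB and THY1, did not pass, at 0.12 to 0.76, so that 10 of 10 stood above 0. The summed signal of the 10 was 21768 to 22161 at 24 h, against 12895 to 13021 at 0 h. Of the other 9 of 19 listed, the defining markers COL3A1, LUM, PDGFRA, TWIST1 and SNAI2 were detected on no array, and DCN, POSTN, FAP and TWIST2 on 1. The part of mesenchymal cells in the AP-1 values was not tested, and in bulk RNA more cells of a type and more RNA per cell cannot be told apart.

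Pluripotency markers were detected in both groups. Of 16 pluripotency markers listed, the 12 with a named probe were all tested and 0 passed, with 9 below 0, a median of -0.16 and a summed signal of 54246 to 56608 at 24 h, against 63590 to 65015 at 0 h. LIN28A gave 13.53 at 24 h, against 13.66 at 0 h, and PODXL 13.20 at 24 h, against 13.33 at 0 h. The methyltransferase DNMT3B stood at -0.72 ± 0.11 (limma adjusted p = 0.051) and the factor UTF1 at 0.76 ± 0.12 (limma adjusted p = 0.0516), as near the threshold as FOS, both named after their values were seen. Few lineage markers were bright enough to test: 3 of 10 for neurectoderm, 1 of 10 for mesoderm, 3 of 10 for endoderm and 4 of 10 for trophoblast, of which 0 passed. The mesoderm marker KDR stood at 0.81 ± 0.16 (limma adjusted p = 0.065). The trophoblast markers had a median of 0.65, with TFAP2C at 0.66 ± 0.14 (limma adjusted p = 0.0694) and KRT7 at 0.63 ± 0.30. PGF, a trophoblast growth factor, was at least 1.68-fold higher at 24 h (limma adjusted p = 0.0624), its 0 h signal being not well above background. VGLL1, the other trophoblast marker tested, went the other way, at least 1.085-fold lower at 24 h, where it was detected on no array. Each of PGF and VGLL1 was kept by the detection filter only through its brighter group, which favours that direction. Both were named after their values were seen. The neurectoderm markers TUBB3, NES and MAP2 stood at 0.56 ± 0.14, -0.17 ± 0.11 and 0.10 ± 0.30. The endoderm markers AFP and APOA1 stood at -0.29 ± 0.18 and -0.05 ± 0.26. TTR, the other endoderm marker tested, was at least 1.09-fold higher at 24 h, its 0 h signal being not well above background. It too was kept by the filter only through its brighter group. MAP2 and TTR were also named after their values were seen. The part of differentiating cells in the AP-1 values was not tested.

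**Figure D5:**
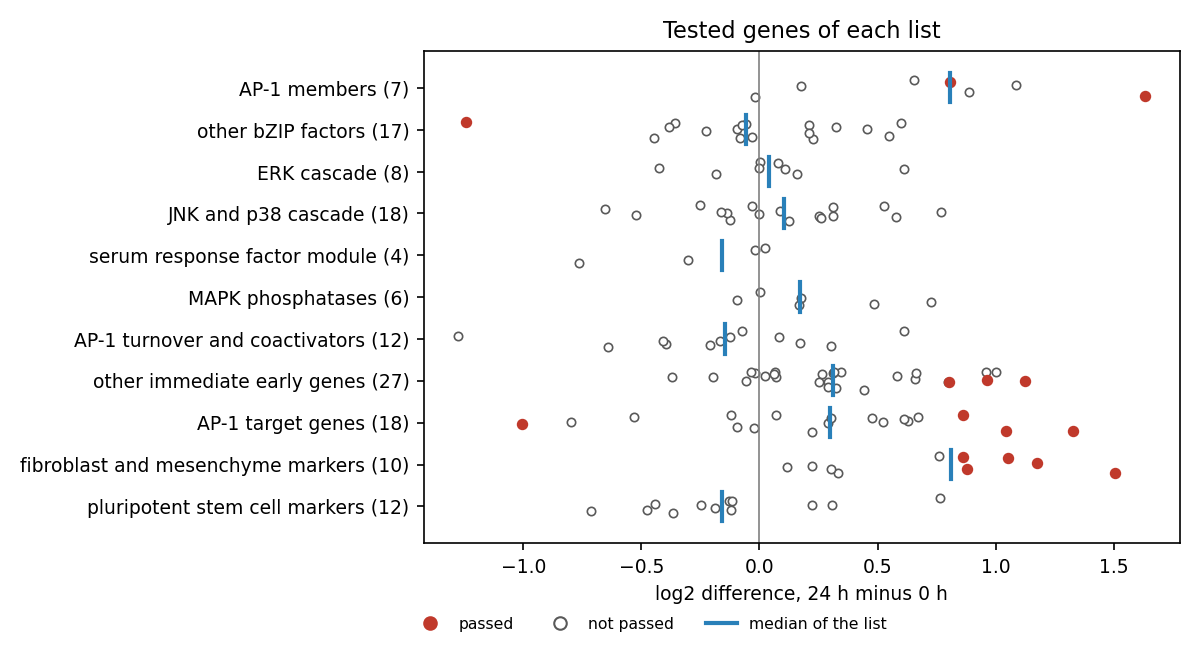
The log2 difference, 24 h minus 0 h, of each tested gene in each list, with the number tested in brackets. Red points passed, open points did not, and blue bars are list medians, which run from -0.16 (serum response factor module, pluripotency markers) to 0.81 (AP-1 members, fibroblast and mesenchyme markers). Lineage markers are not drawn; KDR, the 1 mesoderm marker tested, also stood at 0.81.

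Between 19705 and 20068 probes were detected on the 24 h arrays and between 20433 and 20443 on the 0 h arrays. Dividing an array's 99th percentile by the median of its undetected probes gave 69.7 and 60.4 at 24 h, against 82 and 83.1 at 0 h. Across genes, which are not independent replicates, the signals correlated at Pearson's r of 0.987 within the 24 h group, 0.991 within the 0 h group, and 0.971 to 0.979 across groups.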

How the data were processed

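The authors deposited, per the file headers, linear bead intensities averaged per probe, not normalised, and a detection p-value for each of them. A second deposited table gives log2 values. Its tool was limma per the submitters' processing notes; its steps are not given in the sources used here. Each of its columns correlated at 0.99998 with neqc of the same array and differed by at most 0.0563, with column medians of 5.35 to 5.36, so the scale was taken as log2, quantile normalised, not centred.

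Intensities were processed with neqc (offset 16) of limma 3.58.1 in R 4.3.3. Probes with a detection p under 0.05 on at least 2 arrays were kept (20361). Symbols came from the platform annotation, updated by Entrez identifier (1 symbol for 26358 probes, several for 3, none for 20856; 0 symbols changed). The brightest kept probe stood for a gene, giving 11030 of 18348 named genes. lmFit and eBayes compared 24 h with 0 h without a replicate block. No set test was run. The fit was checked for bias and sign on simulated data. The planted changes were larger than any AP-1 difference here, so the check does not cover changes of that size. The number of arrays, 2 per group, limits the precision.

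The members, lists and alternatives were chosen with earlier results of these data known. Named genes were the members and those of each pathway list that passed or were among its 3 largest differences. They also included the 2 brightest and all passing markers of each marker list, and the 3 genes nearest FOSL1. All tested fibroblast, mesenchyme and lineage markers were named. EGR1, DNMT3B, UTF1, PGF, VGLL1, MAP2 and TTR were added after their values were seen. Alternatives varied background correction, scaling, filter, probe rule, prior, source table, replicate block and arrays. The unscaled values were added after seeing the data. No array coordinates are given, since no build is named for the array.

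Replicate numbers were not used to pair the arrays, because the labels give numbers only. The correlation of same-numbered deviations was 0.154, which with 2 pairs cannot show whether the arrays were paired.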

Additional observations from a re-analysis of the deposited data

How the results depend on the processing

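The count of AP-1 genes that passed was 2, and 4 without background correction, with normexp at an offset of 50, with detection on all 4 arrays, with a detection p under 0.01 and with a trend and robust prior. It was 3 with the probes' mean, the authors' log2 table and 75th percentile scaling. It was 1 on unscaled values and 0 without a filter, with each probe tested on its own, with the replicate block and with any 1 array left out, where limma also called 0 of all genes and 1831 to 3341 stood at an unadjusted p under 0.05. Over all genes 251 passed, and 2199, 1641, 1370, 1240 and 2522 in those first 5 settings, 388 with the authors' table, 721 with 75th percentile scaling and 5426 on unscaled values. Without a filter 0 passed, with 3456 at an unadjusted p under 0.05, and with the replicate block 0, with 3828. Of the pathway genes 8 passed, and 25, 24, 21, 21 and 29 in the first 5 settings, 45 on unscaled values and 0 in each setting where no AP-1 gene passed. Of the calls, 59.4% were higher in limma after quantile normalisation and 49.8% with 75th percentile scaling, and on unscaled values 1.22% were (66 higher, 5360 lower).

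FOSL1 (1.63) and JUN (0.81) kept their values but missed the threshold without a filter, probe by probe and with the replicate block. The limma adjusted p without a filter was 0.102 for FOSL1 and 0.105 for JUN. Probe by probe it was 0.0801 for both genes, and with the replicate block 0.07 for both. JUN also missed the threshold on unscaled values (0.094). FOS was called at 0.49, 0.65, 1.16, 1.08 and 1.09 without background correction, with normexp, with 75th percentile scaling, with the authors' table and under 4 other settings. ATF3 was called at 0.46, 0.53 and 0.65 without background correction, with normexp, and with stricter filters or the robust prior. Signs turned for FOSL2 with 75th percentile scaling (0.11) and, on unscaled values, for ATF3 (-0.075) and MAFF (-0.12). With 1 array left out the difference ran from 1.46 to 1.81 for FOSL1, 0.77 to 0.84 for JUN, 0.94 to 1.23 for FOS, 0.62 to 0.68 for ATF3, 0.44 to 1.33 for FOSB, -0.32 to 0.29 for FOSL2 and -0.24 to 0.59 for MAFF. It ran from -1.78 to -0.77 for EP300, -1.11 to -0.41 for MRTFB, 0.23 to 0.87 for CREB5 and 0.33 to 0.83 for MAPK10, and spanned 0 for ELK4 (-0.63 to 0.026), MRTFA (-0.18 to 0.23), DUSP16 (-0.11 to 0.46), LIN28A (-0.26 to 0.016) and APOA1 (-0.41 to 0.32), and 75th percentile scaling turned LIN28A (0.041) and APOA1 (0.15). The fits with more calls differ from that reported in scale, genes tested or prior, and which of these sets the count was not tested. Without background correction ITGA5 was 0.75 and HMOX1 -0.63. FOSB was not called under any alternative. It was detected on only 1 of the 0 h arrays, and MAFF on only 1 array of each group. The part of low signal in their missed calls was not tested.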
